A study of Mus musculus with 84 samples.

Results

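The messenger RNA of 9 genes of myelin and of oligodendrocytes, Ugt8a, Fa2h, Klk6, Mbp, Mobp, Mog, Mag, Cnp and Mal, was followed in the hypothalamus and hippocampus of wild-type and of leptin-deficient mice. The genes were chosen by name, with earlier results of these data known, as were the lists of other genes used below. Their counts set beside the share over all genes are therefore descriptions. Each symbol of the 9 matched 1 row of the RNA-seq count table, so that they make up 9 of its 49671 genes. The study took 7 tissues from each of 12 mice, which gave 84 libraries. Of these, 24 came from brain, 12 from each region. The mice formed 4 groups of 3, wild type (WT) and ob/ob animals each on normal food (written ND here) or on high-fat food (HFD), so that there were 6 mice of each genotype. Tissue was taken after 20 weeks, and the labels do not say whether that is an age or a time on the diet. The ob/ob mouse carries a nonsense mutation in Lep, the gene of the adipocyte hormone leptin, and becomes obese on normal food. Both ob/ob groups carry it in every cell from conception, and obesity and the lack of leptin cannot be told apart in them.

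Oligodendrocytes wrap axons of the central nervous system in myelin, a stack of lipid-rich membrane that speeds conduction. The membrane is unusually rich in galactolipids and cholesterol, is held together by a few abundant proteins and carries adhesion molecules on its surfaces. Precursor cells go on making new oligodendrocytes in the adult brain, and these pass through a short newly formed stage before they make myelin. In whole tissue, fewer cells of a type and less RNA per cell cannot be told apart, and this holds for every difference given here.

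Among the 9 genes, Ugt8a and Fa2h encode enzymes of galactolipid synthesis. UGT8A adds galactose to ceramide, and FA2H puts a hydroxyl group on the fatty acids of these lipids. Klk6 encodes kallikrein-related peptidase 6, a secreted serine protease of mature oligodendrocytes. Mbp and Mobp encode basic proteins of compact myelin, and MAL is a small membrane protein that sorts lipids and proteins towards myelin. MOG lies on the outermost face of the sheath, MAG lies on its inner face against the axon, and CNP is a phosphodiesterase of the non-compacted channels of cytoplasm.

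Paired-end counts per gene on mouse build GRCm38 came to between 12098380 and 15535110 per brain library. Levels are given as CPM, a gene's counts relative to all gene counts of the library, on library sizes scaled by the trimmed mean of M values. Differences are log2 fold changes with their standard errors from edgeR's quasi-likelihood test, and adjusted p-values are Benjamini-Hochberg values over all genes tested in that region, called at 0.05. P-values rest on the spread between libraries of a group. Each region gave 1 library per mouse, so differences between mice and between samplings cannot be told apart. All 11 markers of hypothalamic neurons were higher in the libraries labelled hypothalamus, and all 5 of hippocampal neurons were lower. The WT ND 1 hypothalamus library stood apart, with a summed hypothalamic marker level of 446 CPM against 830–1334 CPM in the other libraries. Its summed hippocampal marker level was 292 CPM against 128–206 CPM. The counts do not show the mutation itself. Lep was at 0 counts in every hypothalamus library and at 0 or 1 in the hippocampus, and in epididymal fat it ran from 444 to 2126 CPM in WT mice and from 2269.8 to 5003 CPM in ob/ob mice.

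The genes differ widely in level. Per kilobase of exon, the median level over the 12 hypothalamus libraries was 462 CPM per kb for Mbp and 189 CPM per kb for Mobp. Cnp and Mal followed at 119.9 and 119 CPM per kb, with ranges of 101–136 and 105–163 that overlapped. Mog stood at 52.7 and Mag at 45.7 CPM per kb, and their ranges overlapped too. Ugt8a and Fa2h were lower again at 12.4 and 11.5 CPM per kb, and Klk6 was lowest at 4.49 CPM per kb. In the hippocampus the order was close to this, from 486 CPM per kb for Mbp to 3.21 CPM per kb for Klk6.

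**Figure D1:**
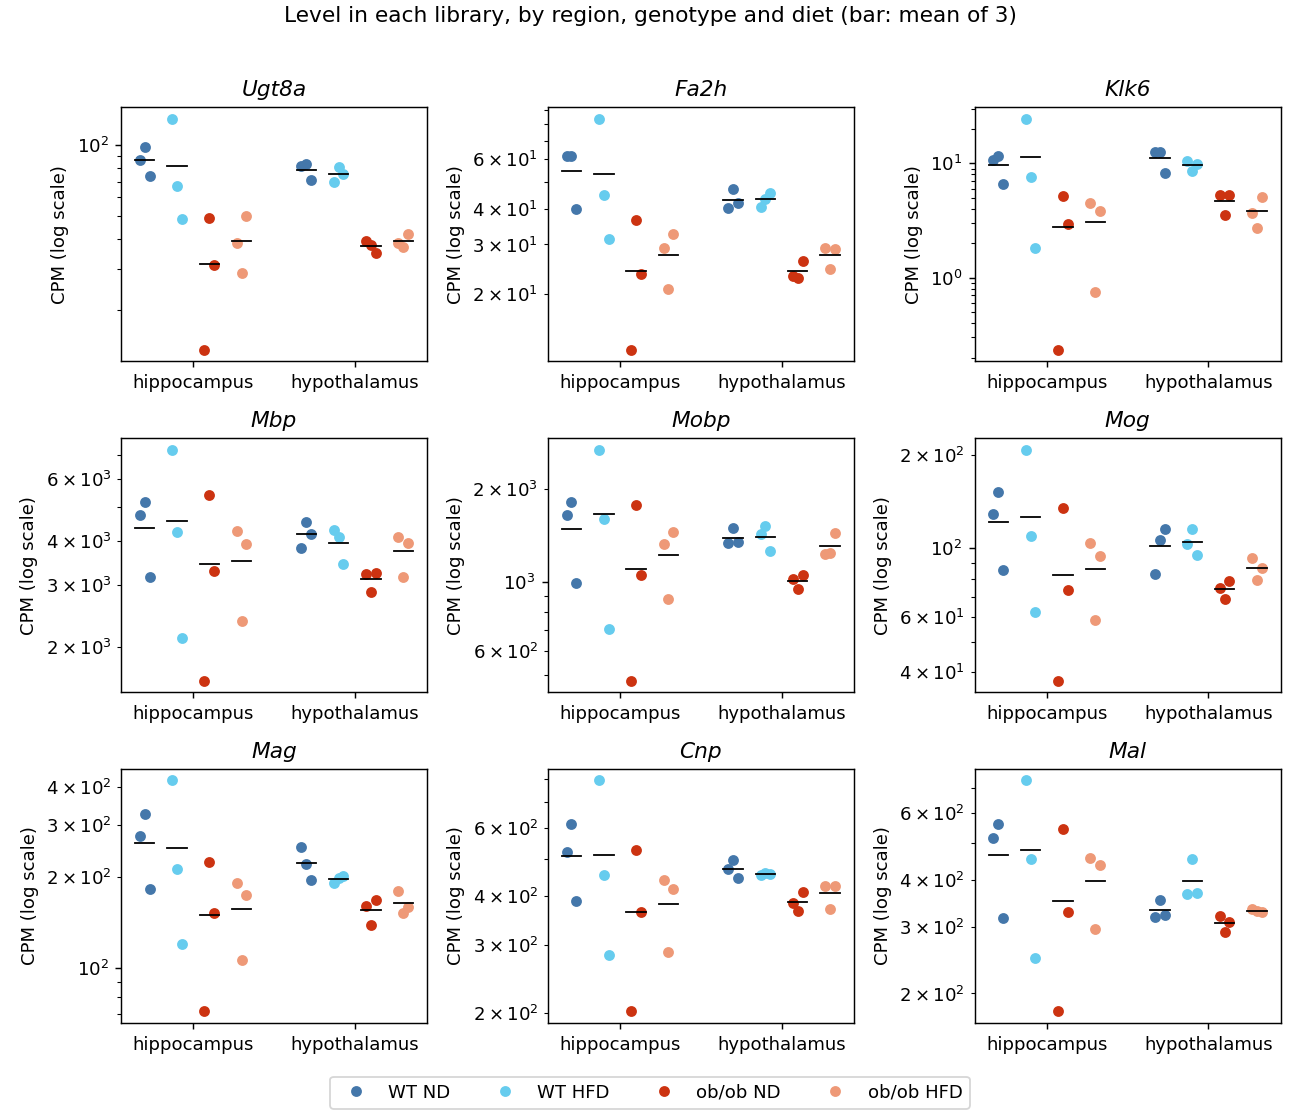
CPM of each of the 9 genes in each of the 24 brain libraries on a log scale, by region and group, where each point is 1 mouse and each bar the mean of 3. In the hypothalamus the points of a group lie close together and Ugt8a, Fa2h and Klk6 of ob/ob mice lie below all WT points, while in the hippocampus the points of a group are spread widely.

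The genotype comparison asks what differs between ob/ob and WT mice in these tissues, where lack of leptin and obesity cannot be told apart. In the hypothalamus, averaged over both diets, 8 of the 9 genes were lower in ob/ob than in WT mice, all but Mal, and none was higher. Of all 16537 genes tested there, 8.36% were lower and 15.5% changed in either direction. The median log2 difference of the 9 genes was -0.37, and over all genes tested it was 0.00. The largest differences were in the protease and in the lipid enzymes. For 5 of the 9 genes, Ugt8a, Fa2h, Klk6, Mag and Cnp, every ob/ob library lay below every WT library, and this held for 4.37% of all genes. Without WT ND 1, the library that stood apart, all 9 genes were called lower, and 26.9% of all genes were then called in either direction.

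Ugt8a (ENSMUSG00000032854), the galactosyltransferase, stood at 81.7, 83.2 and 70.9 CPM in WT ND and at 69.9, 81.0 and 75.7 CPM in WT HFD hypothalamus. In ob/ob ND it stood at 39.3, 37.8 and 35.0 CPM, and in ob/ob HFD at 38.4, 37.0 and 42.1 CPM. The lowest WT library was thus well above the highest ob/ob library, and the means were 77.1 ± 5.77 and 38.3 ± 2.38 CPM (SD, n = 6 each). The gene lies on the minus strand at chr3:125865271-125938619. It fell by 1.01 ± 0.07 on the log2 scale (adjusted p = 2.27e-06).

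Fa2h (ENSMUSG00000033579), the fatty acid hydroxylase at chr8:111345135-111393824 on the minus strand, read 40.4, 47.0 and 42.0 CPM in WT ND and 40.7, 43.4 and 45.8 CPM in WT HFD. The ob/ob ND libraries held 23.3, 22.9 and 26.3 CPM, and the ob/ob HFD libraries 29.1, 24.5 and 29.0 CPM. Again no ob/ob library reached a WT library, and the 6 ob/ob libraries averaged 25.8 ± 2.74 CPM against 43.2 ± 2.71 CPM (SD). The log2 difference was -0.74 ± 0.07 (adjusted p = 6.43e-05).

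Klk6 (ENSMUSG00000050063), at chr7:43824499-43832030 on the plus strand, was the scarcest of the 9. Its WT ND libraries held 12.5, 12.5 and 8.30 CPM and its WT HFD libraries 10.4, 8.62 and 9.79 CPM. Levels were 5.25, 3.56 and 5.29 CPM in ob/ob ND and 3.69, 2.72 and 5.10 CPM in ob/ob HFD. The groups did not overlap, and the mean fell from 10.4 ± 1.83 to 4.27 ± 1.09 CPM (SD, n = 6 each). With a log2 difference of -1.28 ± 0.16 (adjusted p = 0.000459), it had the largest difference of the 9 and also the largest error.

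The adhesion and surface proteins came next. Mag (ENSMUSG00000036634), at chr7:30899176-30914873 on the minus strand, was at 253, 222 and 196 CPM in WT ND and at 192, 199 and 203 CPM in WT HFD. It was at 160.0, 139 and 168 CPM in ob/ob ND and at 180.3, 153 and 159 CPM in ob/ob HFD. All 6 ob/ob libraries were below all 6 WT libraries, and the log2 difference was -0.40 ± 0.07 (adjusted p = 0.00361). Mog (ENSMUSG00000076439), at chr17:37010743-37023398 on the minus strand, ran from 82.9 to 116 CPM in WT mice and from 68.5 to 93.1 CPM in ob/ob mice. The ranges overlapped through WT ND 1, and the log2 difference was -0.37 ± 0.08 (adjusted p = 0.0114).

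Of the proteins of compact myelin, Mbp (ENSMUSG00000041607), on chromosome 18 from 82475146 to 82585637 on the plus strand, had 3824, 4519.6 and 4199 CPM in WT ND and 4294, 4111 and 3439 CPM in WT HFD. It had 3232, 2857 and 3247 CPM in ob/ob ND and 4111, 3164 and 3935 CPM in ob/ob HFD. The ob/ob ND libraries were all below the WT libraries, while 2 of the 3 ob/ob HFD libraries lay inside the WT range. The log2 difference over both diets was -0.25 ± 0.08 (adjusted p = 0.0472), and this call held in the 3 fits without ob/ob HFD 1, WT HFD 3 or WT ND 1 and was lost in the 9 fits that left out another library, with adjusted p-values up to 0.113. Mobp (ENSMUSG00000032517), at chr9:120149707-120181484 on the plus strand, averaged 1396 ± 101 CPM in WT and 1156 ± 182 CPM in ob/ob mice (SD, n = 6 each). Its log2 difference was -0.28 ± 0.07 (adjusted p = 0.0112), with the highest ob/ob library, an HFD library at 1439 CPM, inside the WT range.

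Cnp (ENSMUSG00000006782), at chr11:100574904-100591729 on the plus strand, had the smallest difference that passed. It ran from 447 to 496 CPM in WT mice and from 368 to 425 CPM in ob/ob mice, without overlap, and the log2 difference was -0.22 ± 0.05 (adjusted p = 0.0158). Mal (ENSMUSG00000027375), at chr2:127633226-127656695 on the minus strand, ran from 318 to 453 CPM and from 292 to 335 CPM, with overlap, at a log2 difference of -0.19 ± 0.06 (adjusted p = 0.0588), and it was called lower without WT HFD 1 or without WT ND 1. Exons of Cnp overlap those of Dnajc7 on the opposite strand by 154 bases, and no strand setting is given in the file header. Exons of Mobp overlap those of Gm38642 on the same strand by 79 bases. Reads in either overlap cannot be assigned to 1 gene with certainty.

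**Figure D2:**
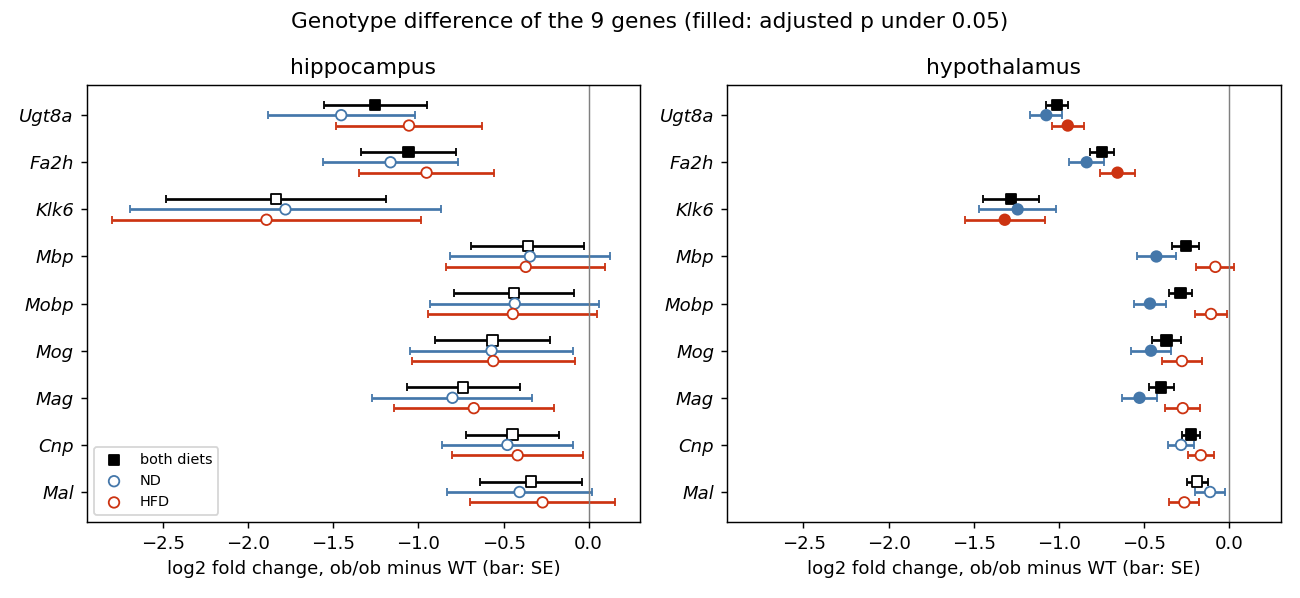
Log2 difference of ob/ob against WT with its standard error for each of the 9 genes, by region, over both diets and on each diet alone, where filled points passed an adjusted p of 0.05. The hypothalamus points run from -1.28 for Klk6 to -0.19 for Mal over both diets, and the hippocampus points are lower for each gene and have longer error bars.

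Markers of other cells also differed with genotype in the hypothalamus, where 8.36% of all genes were lower and 7.15% higher. Of 10 microglia markers, 5 were lower in ob/ob mice and none was higher, and their summed level was 333–374 CPM in WT and 273–309.9 CPM in ob/ob libraries. Of 5 red blood cell genes, 2 were higher, with a summed level of 44.4–85.1 CPM in WT and 78.4–307 CPM in ob/ob libraries. That count was 0 without WT HFD 3, WT ND 2, ob/ob ND 1 or ob/ob ND 3, 1 without WT HFD 1, WT ND 3 or ob/ob HFD 3, and 5 without WT ND 1. Of 10 astrocyte markers, 2 were higher and 1 lower, and none was lower without WT HFD 1, ob/ob ND 3 or ob/ob HFD 2. edgeR called none of 10 neuron markers, of which 4 had an unadjusted p under 0.05 and DESeq2 called 0, and none of 8 endothelial markers, of which 0 were under 0.05 and DESeq2 called 0. All 6 thalamus markers were tested and none passed, while 2 had an unadjusted p under 0.05 and DESeq2 called 1, with sums of 346–698 CPM in WT and 469–821 CPM in ob/ob libraries. Of these 6, 3 were called higher without WT ND 1 and 1 without ob/ob HFD 3, 1 was called lower without WT HFD 3 or WT ND 2, and with no filter on low counts 4 were higher and 1 lower. The part of these cells in the differences of the 9 genes was not tested. Brain weight, given by the authors with no unit, was 0.399–0.482 in the 6 WT mice and 0.336–0.376 in the 6 ob/ob mice.

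On the normal diet alone, 7 of the 9 genes were lower in ob/ob hypothalamus, against 2.98% of all genes. Ugt8a fell by 1.07 on the log2 scale (adjusted p = 0.000105), Fa2h by 0.84 (adjusted p = 0.00108) and Klk6 by 1.24 (adjusted p = 0.0103). Mag and Mobp followed at -0.52 and -0.46 (adjusted p = 0.0139 and 0.0143), and Mog and Mbp at -0.46 and -0.43 (adjusted p = 0.0418 and 0.0448). Cnp was at -0.28 (adjusted p = 0.0522) and Mal at -0.11 (adjusted p = 0.495). The 3 ob/ob libraries lay below the 3 WT libraries for 8 of the 9 genes, all but Mal, as for 12% of all genes. The count fell to 3 without ob/ob ND 1 or without ob/ob ND 2. The call of Mog was lost in 10 of the 12 fits that left out 1 library, all but those without WT ND 1 or WT HFD 3 (adjusted p up to 0.147). That of Mbp was lost in 9 of 12, all but these and the one without ob/ob HFD 2 (adjusted p up to 0.159).

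On the high-fat diet alone, the lipid enzymes and the protease passed and the other 6 genes did not. The 3 genes called lower stood against 1.28% of all genes. Ugt8a fell by 0.95 (adjusted p = 0.000369), Fa2h by 0.65 (adjusted p = 0.00813) and Klk6 by 1.32 (adjusted p = 0.0139) on the log2 scale. The log2 differences of Mobp and Mbp were -0.10 and -0.08 (adjusted p = 0.601 and 0.77). Those of Mog, Mag, Mal and Cnp ran from -0.28 to -0.16, with adjusted p-values from 0.135 to 0.277. The HFD groups did not overlap for 7 of the 9 genes, all but Mobp and Mbp, as for 15% of all genes. The call of Klk6 was lost in 5 of the 12 fits that left out 1 library, those without WT HFD 1, 2 or 3 or ob/ob HFD 1 or 2 (adjusted p up to 0.0793). Without WT HFD 2 that of Fa2h was lost too (adjusted p = 0.0518), which left 1 gene. Both comparisons are parts of the one over both diets and share its libraries.

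The diet comparisons test whether the high-fat diet moved these genes within a genotype, and the interaction tests whether the genotype differences depended on diet. edgeR called 0 of the 9 genes and 0% of all genes for any of these in either region, and DESeq2 called none of the 9. Over all genes, 328 to 669 had an unadjusted p under 0.05 in these 6 comparisons, and DESeq2 called 0 to 2. In the hippocampus none of the 9 had an unadjusted p under 0.05. In the hypothalamus of ob/ob mice, the ND libraries held 1023, 946 and 1054 CPM of Mobp, and the HFD libraries 1231, 1241 and 1439 CPM. Its diet groups did not overlap, nor did those of Mog and Mal, as for 7.55% of all genes higher on HFD, and the log2 difference was 0.37 ± 0.09 (adjusted p = 1 by edgeR, with an unadjusted p under 0.05). Mbp had a log2 difference of 0.26 there. Both genes were under 0.05 before adjustment also in the interaction, at 0.36 for Mobp and 0.35 for Mbp, and had an adjusted p of 1 by edgeR. In WT mice Mal alone was under 0.05 before adjustment, and alone had HFD libraries all above the ND libraries, as 3.72% of all genes did, with 0.26 ± 0.09 (adjusted p = 0.91 by edgeR).

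In the hippocampus, 2 of the 9 genes were lower in ob/ob mice over both diets, the lipid enzymes Ugt8a and Fa2h, where 7.46% of 16361 genes were lower and 13.9% changed either way. All 9 log2 differences were negative, with a median of -0.57 against 0.01 over all genes tested. The spread between libraries of a group, however, was several times that of the hypothalamus. The coefficient of variation within a group had a median of 46.8% in the hippocampus and of 7.96% in the hypothalamus over 36 values each.

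Ugt8a stood at 86.1, 98.1 and 74.1 CPM in WT ND hippocampus and at 129, 66.8 and 48.5 CPM in WT HFD. It stood at 13.7, 49.3 and 31.1 CPM in ob/ob ND and at 38.6, 28.8 and 50.2 CPM in ob/ob HFD. The genotypes overlapped only where ob/ob ND 2 and ob/ob HFD 3 reached past WT HFD 3. The log2 difference was -1.25 ± 0.30 (adjusted p = 0.0206), and it missed the threshold without ob/ob HFD 1, ob/ob ND 3 or WT ND 2, with adjusted p-values up to 0.0532.

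Fa2h stood at 61.9, 61.5 and 40.0 CPM in WT ND and at 83.5, 44.9 and 31.5 CPM in WT HFD. The ob/ob ND libraries held 12.7, 36.6 and 23.5 CPM, and the ob/ob HFD libraries 29.0, 20.9 and 32.7 CPM. Here too WT HFD 3 was the 1 WT library within the ob/ob range. The log2 difference was -1.06 ± 0.28 (adjusted p = 0.0299), and 6 of the 12 fits that left out 1 library lost the call, with adjusted p-values up to 0.0704. These were the fits without ob/ob HFD 1 or 2, ob/ob ND 3, WT HFD 1 and WT ND 1 or 2.

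Klk6 varied most, at 10.8, 11.6 and 6.66 CPM in WT ND and 24.5, 7.63 and 1.80 CPM in WT HFD. In ob/ob ND it was at 0.234, 5.17 and 2.93 CPM, the first of which is 3 counts, and in ob/ob HFD at 4.54, 0.754 and 3.86 CPM. The groups overlapped, and the log2 difference of -1.84 ± 0.64 had an adjusted p of 0.0808, which became 0.0354 without WT HFD 3 and 0.0499 with no filter on low counts.

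The other 6 genes were not called for genotype in the hippocampus. Mbp had 4752, 5155 and 3159 CPM in WT ND and 7263, 4249 and 2125 CPM in WT HFD. It had 1606, 5401 and 3283 CPM in ob/ob ND and 4273, 2373 and 3911 CPM in ob/ob HFD. The second highest of these 12 was an ob/ob library and the second lowest a WT library, and the log2 difference of -0.36 had an adjusted p of 0.514. The differences of Mag, Mog, Cnp, Mobp and Mal were -0.74, -0.57, -0.45, -0.44 and -0.34, with adjusted p-values from 0.163 to 0.495. No gene of the 9 had all ob/ob libraries below all WT libraries, as 4.59% of all genes did.

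On each diet alone edgeR called 0 of the 9 genes in the hippocampus, against 1.85% of all genes lower on ND and 0.911% lower on HFD. On ND, 2 of the 9 had an unadjusted p under 0.05, and DESeq2 called those 2, Ugt8a and Fa2h (adjusted p = 0.0367 and 0.0342 by DESeq2). Their log2 differences on ND by edgeR were -1.45 ± 0.43 and -1.16 ± 0.40 (adjusted p = 0.0872 and 0.127). The ND groups of Ugt8a, Fa2h and Klk6 did not overlap, as for 13.3% of all genes. On HFD, Ugt8a and Fa2h, at log2 differences of -1.06 and -0.95 (adjusted p = 0.234 and 0.247), again had an unadjusted p under 0.05, DESeq2 called none and no gene of the 9 was without overlap, as 10.9% of all genes were. The HFD values leaned on WT HFD 1. Without it the log2 differences of Mbp, Mobp, Cnp and Mal on HFD were 0.14, 0.08, 0.05 and 0.18 in place of negative values.

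One library decided the top and another the bottom of the hippocampal values. WT HFD 1 was the highest of the 12 for 9 of 9 genes, and ob/ob ND 1 was the lowest for 9 of 9. The summed level of the 9 genes ran from 2604 CPM in ob/ob ND 1 to 12333 CPM in WT HFD 1, and the ratio of highest to lowest library ran from 3.93 for Cnp to 105 for Klk6. The same ratio in the hypothalamus ran from 1.35 for Cnp to 4.61 for Klk6. Without WT HFD 1, 1 of the 9 genes was called for genotype over both diets, and without ob/ob ND 1, 2 were.

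Markers of neighbouring tissue moved over a wide range in the same hippocampus libraries. For genotype over both diets, 7.46% of all genes were lower there and 6.42% higher. The thalamus lies under the hippocampus, and the summed level of its 6 markers was 805, 907 and 186 CPM in WT ND and 781, 169 and 40.7 CPM in WT HFD. It was 59.9, 625 and 149 CPM in ob/ob ND and 362, 127 and 612 CPM in ob/ob HFD. The WT HFD 1 library was thus among the 3 highest and ob/ob ND 1 was the second lowest, and 0 of the 6 markers passed for genotype by edgeR or DESeq2 or had an unadjusted p under 0.05. The 8 markers of choroid plexus summed to between 40.6 and 7999.8 CPM, and 0 of them passed on any of these counts. Of 10 microglia markers, 7 were lower in ob/ob hippocampus, with sums of 404–464 CPM in WT and 331–379 CPM in ob/ob libraries, and 4 of 5 red blood cell genes were higher, with sums of 53.8–98.1 and 92.4–244 CPM. Without ob/ob ND 3 the latter count was 2. Of 10 neuron markers 3 were lower, none without ob/ob HFD 2 or WT ND 2 and 1 to 3 without any one of the others. Of 10 astrocyte markers 1 was higher and 2 lower, and 1 was lower without any one library but ob/ob ND 3. The part of these tissues and cells in the values of the 9 genes was not tested.

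**Figure D3:**
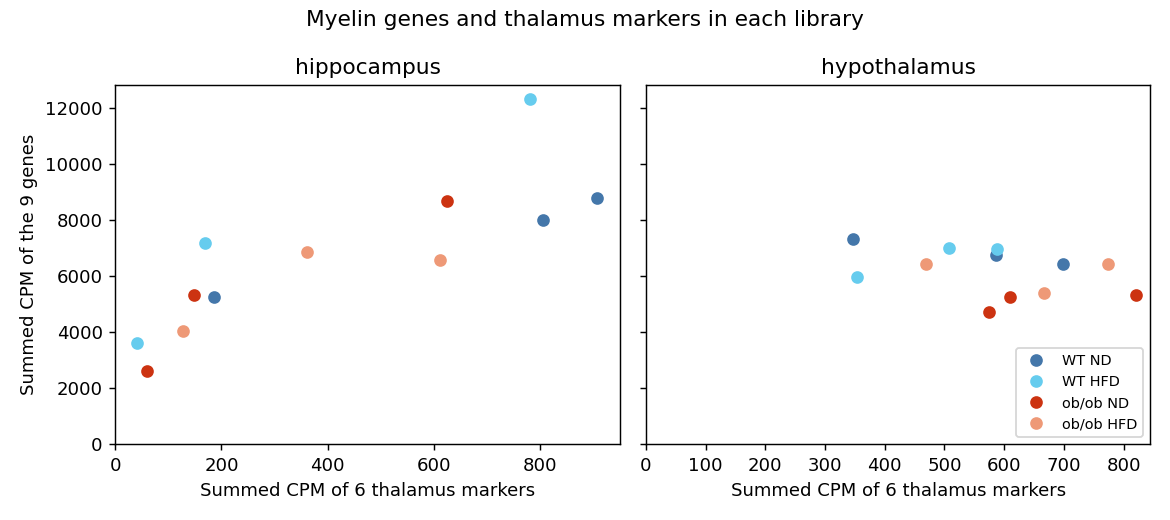
Summed CPM of the 9 genes against summed CPM of 6 thalamus markers, one point per library, by region and group. In the hippocampus the libraries spread along both axes, from 2604 to 12333 CPM for the 9 genes. In the hypothalamus they ran from 4734 to 7329 CPM for the 9 genes and from 346 to 821 CPM for the thalamus markers.

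The 9 genes moved together across libraries. Over the 12 hippocampus libraries the correlation of log2 CPM between members had a median Pearson r of 0.953 over 36 pairs, from 0.800 for Ugt8a with Mbp to 0.996 for Mog with Cnp. In the hypothalamus the median was 0.760, from 0.406 for Mag with Mal to 0.959 for Ugt8a with Fa2h. These are descriptions over the same 12 mice of both genotypes, whose difference is part of each r. The genes most like the mean of the 9, in all 12 hippocampus libraries, were Ermn (r = 0.996), Gpr37 (0.994), Tmem88b (0.992), Prr18 (0.992) and Clic4 (0.991), and the first 3 belong to the list of other myelin genes. In the hypothalamus they were Trf (0.972), Enpp2 (0.969), Cd82 (0.968), Rlbp1 (0.968) and Tjap1 (0.967).

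Because the genes moved together, their promoters were read for letters that are known to be bound by transcription factors of myelin genes, SOX10 and MYRF. RefSeq promoters of GRCm38.p6 were read for 7 of the 9 genes, at 10 starts. Fa2h had no promoter in that set, and Mbp was left out by its chromosome, not by its matches. The 250 bases before each start were searched on both strands. The SOX core was searched as ACAAAG, found in 16.5% of 32851 mouse promoters, and MYRF as CTGGNAC, found in 16.1%. Each motif was found before 5 of the 10 starts and in 4 genes. The windows of 2 of the Mag starts share 191 bases and hold the same matches, which are counted for both starts. Neither motif occurs within the letters of the other motif. The 3 promoters shown are that of the gene with the firmest genotype difference, which holds no match, one with both motifs and one with the most SOX matches. Capitals mark matches on either strand, and each run is written 5′ to 3′ along the gene's own strand: Ugt8a at chr3:125938653-125938902 (minus strand), Mag at chr7:30914864-30915113 (minus strand) and Mobp at chr9:120149492-120149741 (plus strand).
Ugt8a: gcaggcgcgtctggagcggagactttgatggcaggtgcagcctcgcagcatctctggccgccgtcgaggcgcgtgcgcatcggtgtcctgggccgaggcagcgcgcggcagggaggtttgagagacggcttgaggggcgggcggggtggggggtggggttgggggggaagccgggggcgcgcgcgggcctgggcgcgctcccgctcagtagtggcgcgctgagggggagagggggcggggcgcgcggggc
Mag: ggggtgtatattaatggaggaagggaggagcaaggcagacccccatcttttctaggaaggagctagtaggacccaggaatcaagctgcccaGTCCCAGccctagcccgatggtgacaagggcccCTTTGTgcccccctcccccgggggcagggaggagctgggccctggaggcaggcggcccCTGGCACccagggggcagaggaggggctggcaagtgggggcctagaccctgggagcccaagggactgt
Mobp: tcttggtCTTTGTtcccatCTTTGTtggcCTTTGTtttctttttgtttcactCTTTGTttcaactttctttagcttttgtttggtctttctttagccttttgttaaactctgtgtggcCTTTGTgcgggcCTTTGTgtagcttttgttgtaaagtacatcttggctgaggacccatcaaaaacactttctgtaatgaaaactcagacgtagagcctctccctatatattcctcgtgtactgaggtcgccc
Mobp held 6 SOX matches and no MYRF match, and Mag held 1 SOX match and 2 MYRF matches. A match describes letters in this window and not a bound site.

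Other genes of the lineage gave the setting of these changes. The counts that follow stand beside 8.36% of all genes lower and 7.15% higher in ob/ob hypothalamus. In the hippocampus these shares were 7.46% and 6.42%. Of 30 other myelin and mature oligodendrocyte genes, 21 were lower and none higher in ob/ob hypothalamus, with a median log2 difference of -0.32, and 17 to 23 were lower in fits that left out 1 library. They were led by Gamt, which makes creatine, at -0.89 ± 0.09 (adjusted p = 0.000120), the carbonic anhydrase gene Car2 at -0.52 ± 0.06 (adjusted p = 0.000133) and the transferrin gene Trf at -0.66 ± 0.08 (adjusted p = 0.000209). In the hippocampus 7 of the 30 were lower, with a median of -0.52. They included Gamt at -0.73 ± 0.11 (adjusted p = 0.00302) and the tubulin gene Tubb4a at -0.32 ± 0.08 (adjusted p = 0.0246). That count rested on single libraries. It rose to 13 without WT HFD 3 and to 12 without ob/ob ND 2, was 6 without WT ND 3, and was 2 or 3 without any one of the other 9 libraries.

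Newly formed oligodendrocytes were marked by Gpr17, a receptor of cells about to make myelin. In the hypothalamus it ran from 43.4 to 59.9 CPM in WT and from 20.2 to 32.5 CPM in ob/ob mice, a log2 difference of -0.98 ± 0.11 (adjusted p = 0.000209). In the hippocampus it ran from 41.8 to 53.0 and from 18.9 to 29.5 CPM, a log2 difference of -0.86 ± 0.10 (adjusted p = 0.000969). Gpr17 thus separated the genotypes in both regions, including the hippocampus, where the 9 genes were widely spread. Bcas1 was lower in the hypothalamus at -0.30 (adjusted p = 0.00945). Gpr17 and Bcas1 were the 2 of 7 markers called there, where 8.36% of all genes were lower. Gpr17 was the 1 of 7 called in the hippocampus, where 7.46% of all genes were lower. That count was 2 without WT ND 3 or WT HFD 3.

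Of 9 precursor markers, 1 was higher in the hypothalamus, Lhfpl3 at 0.26 (adjusted p = 0.0379), and 1 was lower in the hippocampus, C1ql1 at -0.48 (adjusted p = 0.0151). Of all genes, 7.15% were higher in the hypothalamus and 7.46% lower in the hippocampus. In the hypothalamus no precursor marker was called higher in 10 of the 12 fits that left out 1 library, all but those without WT ND 1 or ob/ob HFD 3, in which 1 was also lower, and 3 were lower with no filter. Pdgfra, the growth factor receptor that defines these cells, was at -0.02 in the hypothalamus and 0.00 in the hippocampus. Among 10 transcription factors of the lineage, Olig2 was lower in both regions, at -0.56 ± 0.12 (adjusted p = 0.00722) in the hypothalamus and -0.97 ± 0.18 (adjusted p = 0.00671) in the hippocampus. Olig1 was lower at -0.42 (adjusted p = 0.0147) and -0.73 (adjusted p = 0.0222), and St18 was lower in the hypothalamus at -0.39 (adjusted p = 0.0135). None of the 10 was higher, and in the hippocampus 1 in place of 2 was called without WT ND 1, WT ND 2 or ob/ob HFD 2, and DESeq2 called 4. Sox10 and Myrf were also among the 10, and neither was among the 2 that edgeR called in the hippocampus.

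Around UGT8A and FA2H, 14 further genes of galactolipid and sphingolipid metabolism were read. In the hypothalamus 5 were lower and none higher, with a median log2 difference of -0.12. They were led by Sptlc2, a subunit of the first enzyme of sphingolipid synthesis, at -0.45 ± 0.08 (adjusted p = 0.00317), the fatty acid elongase gene Elovl6 at -0.37 (adjusted p = 0.0120) and Gal3st1, which makes sulfatide from the product of UGT8A, at -0.41 (adjusted p = 0.0124). The count was 3 without WT HFD 2, WT ND 2, ob/ob HFD 2, ob/ob ND 1 or ob/ob ND 2. In the hippocampus 4 were lower and 1 higher. Elovl6 fell by 0.62 ± 0.11 (adjusted p = 0.00580), Gal3st1 by 0.81 ± 0.18 (adjusted p = 0.0146) and Sptlc2 by 0.49 ± 0.12 (adjusted p = 0.0179) on the log2 scale. The 4 became 2 without ob/ob HFD 1, and none was higher in 9 of the 12 fits that left out 1 library, all but those without WT HFD 3, WT ND 3 or ob/ob ND 3.

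Cholesterol is another main lipid of myelin. Of 18 genes of its synthesis, 4 were higher and 1 lower in ob/ob hypothalamus, where 7.15% of all genes were higher and 8.36% lower. In the hippocampus 2 were higher and none lower, where 6.42% of all genes were higher and 7.46% lower. That count of 2 was 1 without WT ND 2, WT HFD 2 or ob/ob HFD 2. Lss, the lanosterol synthase gene, was higher at 0.51 (adjusted p = 0.00133) in the hypothalamus and at 0.63 ± 0.08 (adjusted p = 0.00111) in the hippocampus. Mvd was higher in the hypothalamus at 0.32 (adjusted p = 0.00956) and Hsd17b7 in the hippocampus at 0.28 (adjusted p = 0.0202). Ebp was lower in the hypothalamus at -0.50 ± 0.07 (adjusted p = 0.000816).

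**Figure D4:**
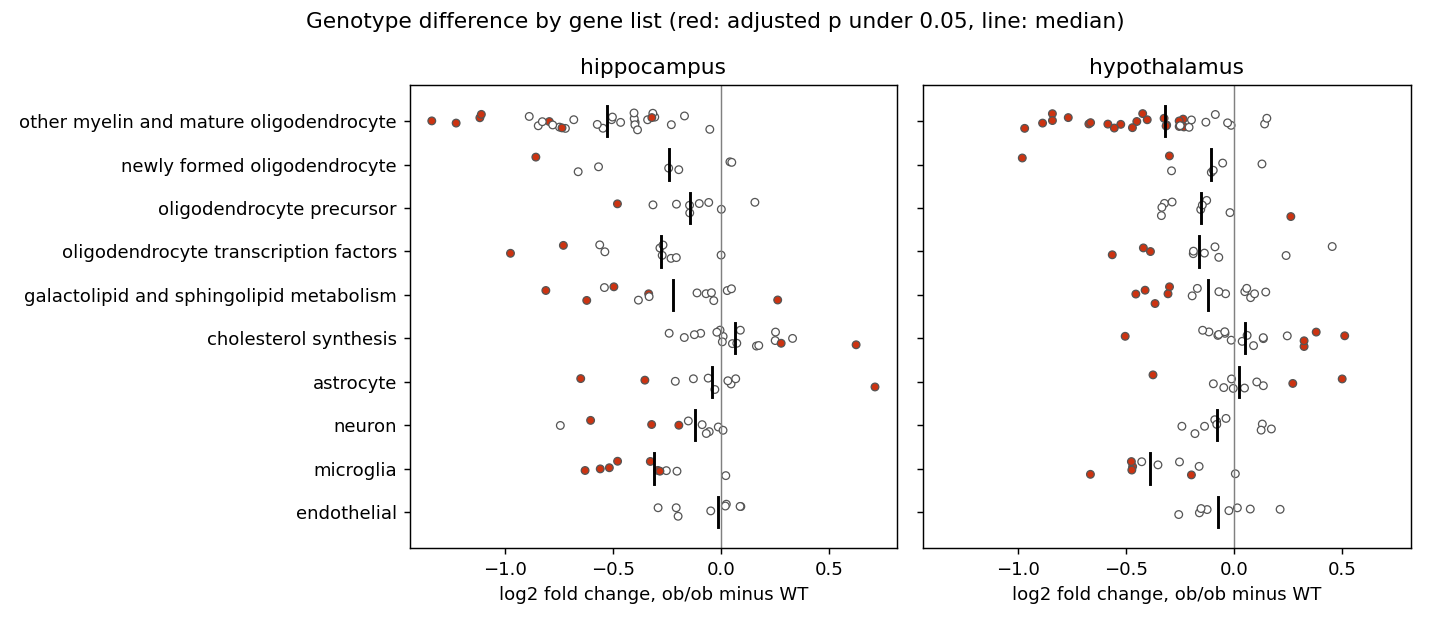
Log2 difference of ob/ob against WT over both diets for each gene of 10 lists, by region, where red points passed an adjusted p of 0.05 and the line marks the median of the list. The lists of myelin genes lie mostly below 0 in both regions, and the cholesterol synthesis genes lie on both sides of 0.

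Between the regions, fitted jointly over 24 libraries, 1 of the 9 genes differed, where 30% of 17163 genes were lower in the hypothalamus and 56.5% differed either way. Mal was lower in the hypothalamus by a log2 difference of -0.41 ± 0.16 (adjusted p = 0.0332). With the mouse as a block it was at -0.33 ± 0.15 (adjusted p = 0.0852), and 11 of the 24 fits that left out 1 library also lost the call. In the hippocampus these were the fits without WT ND 1 or 2, WT HFD 1, ob/ob ND 2 and ob/ob HFD 1 or 3, and in the hypothalamus those without WT ND 3, WT HFD 1 or 3, ob/ob ND 2 and ob/ob HFD 3. The other 8 genes lay between -0.28 for Mog and 0.14 for Klk6. Of the precursor markers, 4 of 9 were higher in the hypothalamus, led by Cacng4 at 1.16, where 26.5% of all genes were higher. Whether the genotype difference itself differed between regions was tested too. edgeR and DESeq2 called 0 of the 9 genes, none had an unadjusted p under 0.05, and edgeR called 0% of all genes, of which 993 had an unadjusted p under 0.05 and DESeq2 called 9. The 2 genes called in the hippocampus and the 8 called in the hypothalamus are therefore not shown to be a difference between the regions.

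Outside the brain, in 60 libraries of heart, aorta, liver, skeletal muscle and epididymal fat, some of the 9 genes were near 0 and others were not. Mog was at most 0.217 CPM and at 0 counts in 44 libraries, Klk6 was at most 0.127 CPM and at 0 in 58, and Mobp was at most 0.684 CPM and at 0 in 29. Mbp ran from 0.172 to 179 CPM, highest in skeletal muscle. Peripheral nerve is myelinated by Schwann cells, and of the list of their genes none passed for genotype in the hippocampus and 1 was higher and 1 lower in the hypothalamus, where none was lower in 7 of the 12 fits that left out 1 library. Cnp was present in every tissue, at 5.60 to 39.2 CPM, and Mal reached 25.2 CPM, in the heart.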

How the data were processed

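RNA from 7 tissues of each of 12 mice was sequenced as paired reads, and the 24 brain libraries were used here. The authors deposited raw counts per gene, made with featureCounts 1.5.1 over exons grouped by gene with no strand option, per the file headers. The submitters' processing notes name Trimmomatic 0.36, HISAT2 2.0.5, featureCounts 1.5.0-p2 and build GRCm38. Organ weights, among them the brain weight, are another deposited table of the authors, with no unit.

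Counts were fitted per region with edgeR 4.0.16 in R 4.3.3 (quasi-likelihood test, trimmed mean of M values, at least 10 counts by edgeR's expression filter and 15 in total), with 1 mean for each of the 4 groups, 8 residual degrees of freedom and Benjamini-Hochberg adjustment over 16361 genes in the hippocampus, 16537 in the hypothalamus and 17163 in the joint fit. The fit was tested on simulated data. For the correlations, log2 CPM used a prior count of 2 and genes of log2 CPM of at least 1. At totals of 12098380 to 15535110 counts, the spread within a group was at least 3.21 times the counting error (Poisson, at the group's mean count) for all 36 gene and group values in the hippocampus. In the hypothalamus it was a median of 3.40 times, under 2 times for 11 of 36 and below the counting error for 2, Cnp in WT HFD and Mal in ob/ob HFD. CPM of tissues outside the brain are relative to plain gene totals.

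The 9 genes and the 18 lists were chosen with earlier results of these data known. All 9 are named in every comparison, from each other list up to 3 genes with the smallest p for genotype per region where the list bears on a result, and the 5 genes most like the mean of the 9. Each result was repeated with DESeq2 1.42.0, with size factors from DESeq2 in edgeR, with no filter, with each library left out, with the replicate number as a block and with the mouse as a block between regions. Results that need certain genes are not reported here. The labels number mice 1 to 3 within each group. Within a region the deviations of same-numbered samples had a median r of -0.08 over 18 pairs in the hippocampus and 0.04 in the hypothalamus. The regions are paired by the animal, and there the median r was 0.06 over 12 mice. The measure is thus low for a true pairing too. It cannot decide whether the number pairs samples. No 2 replicates were alike within sampling noise.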

Additional observations from a re-analysis of the deposited data

How the results depend on the processing

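DESeq2's size factors changed no call of the 9 genes in any of the 14 comparisons. In the hippocampus over both diets, the 2 genes called became 0 with the replicate block and 0 to 3 with 1 library left out. By DESeq2, Mal over both diets and Cnp on ND passed in the hypothalamus (adjusted p = 0.0347 and 0.0102). On ND in the hippocampus, 0 became 2 with DESeq2 and 0 to 1 with 1 library left out. In the hypothalamus over both diets, 8 became 7 with the replicate block and 7 to 9 with 1 library left out. On ND there, 7 became 5 with the replicate block, without Mbp and Mog (adjusted p = 0.0701 and 0.0741), and 3 to 8 with 1 library left out, and on HFD 3 became 1 to 4. Between regions, 1 became 0 with the mouse as replicate block and 0 to 2 with 1 library left out. Whether the replicate number pairs the samples is not known, so no conclusion is drawn from a call lost under the block. The cause of these changes was not tested.

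Over all genes, the hippocampus ND count of 569 was 1141 by DESeq2, 321 with no filter and 81 with the block, and the HFD count of 255 was 701, 112 and 12. In the hypothalamus, 877 on ND became 1440 with no filter and 574 with the block, and 353 on HFD became 678 by DESeq2, 869 with no filter and 213 with the block. The diet counts of 0 there became 173 in WT mice, 39 in ob/ob mice and 111 for the interaction with no filter. The hypothalamus count of 2565 over both diets was 4511 without WT ND 1, the library that stood apart. Depth gave Klk6 the largest counting error, with 3 counts in 1 hippocampus library and 34 to 166 counts in the hypothalamus.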
